A study of Mus musculus with 6 samples.

Results

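The interleukin-1 and interleukin-18 system was followed in 2 macrophage subsets sorted from regenerating mouse muscle. Its 8 genes are the ligands Il1a, Il1b and Il18, the inhibitors Il1rn and Il18bp, and the receptor genes Il1r1, Il1r2 and Il1rap. They were chosen by name, with earlier results of these data known. Each was read on the probe set that the array annotation gives to that gene alone. Of the 8 genes 7 have such a probe set, 1 each, among the 19938 genes that could be tested. Il1r1, the gene of the signalling receptor for interleukin-1, is not analysed here. The subsets were Ly6C- F4/80high and Ly6C+ F4/80low cells, both taken from each of 3 mice, which gave 3 arrays per subset and 6 in all. All mice were of the strain B6.129P2-Lyzstm1(cre)Ifo/J, which carries Cre recombinase at a lysozyme locus that is active in myeloid cells, and no source used here gives their age. The tibialis anterior muscle of each mouse had received cardiotoxin, a snake venom toxin that destroys muscle fibres, 2 days before the cells were taken. Bead-selected CD45+ cells were then sorted with antibodies to the antigens that name the subsets, and neither subset is an untreated control.

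Interleukin-1 is an alarm cytokine with a pair of ligands, IL-1α and IL-1β, that act on the same receptor. IL-1β and IL-18 are made as inactive precursors that caspase-1 cuts inside inflammasomes, whereas the precursor of IL-1α is already active. The system is held back by a receptor antagonist (Il1rn), a decoy receptor that binds ligand without signalling (Il1r2) and a soluble protein that captures IL-18 (Il18bp). In injured muscle, monocytes and macrophages that enter the tissue are a known source of interleukin-1. The arrays measured RNA, so precursor cutting and secretion were not observed.

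Values are expression levels on the log2 scale, and every difference is Ly6C- F4/80high minus Ly6C+ F4/80low. Over all probe sets the correlation was 0.979 to 0.982 between arrays of different subsets and 0.990 to 0.993 within a subset. The background was set at 5.44, the 95th percentile over 1194 genes of smell and pheromone receptors (the olfactory and vomeronasal families). The 8 macrophage markers examined, Adgre1, Csf1r, Cd68, Mertk, Fcgr1, Lyz2, Itgam and Cd14, were above it on all 6 arrays. In Ly6C- F4/80high cells 3 were called higher and 3 lower. Adgre1, 1 of the 3 higher, encodes F4/80, on which the subsets were sorted, so its call was not independent of the sort. Macrophage markers summed on the linear scale to 17813 to 18325 in Ly6C- F4/80high arrays and to 16915 to 17207 in Ly6C+ F4/80low arrays. Of the 6 defining neutrophil markers measured, Ly6g, Retnlg, Cxcr2, Ngp and Ltf lay under background on all 6 arrays. The summed linear level of the whole list of 12 neutrophil markers ran from 1991 to 2030 in Ly6C- F4/80high arrays and from 2177 to 2293 in Ly6C+ F4/80low arrays, with 1 marker, Mmp8, called higher and 4 lower. That direction rests on Cd177: without it the list summed to 1825 to 1899 in Ly6C- F4/80high arrays and to 1514 to 1578 in Ly6C+ F4/80low arrays. Mmp8, with mean log2 levels of 9.76 in Ly6C- F4/80high and 9.03 in Ly6C+ F4/80low arrays, stayed in that sum. A sum without both genes was not taken, so no order of the subsets is given for the remaining markers. Dendritic cell markers summed to 267 to 282 in Ly6C- F4/80high arrays and to 394 to 409 in Ly6C+ F4/80low arrays, with 3 of 6 called lower, while Xcr1 and Clec9a were under background on all arrays. Muscle, stromal and endothelial markers summed to 647 to 707 in Ly6C- F4/80high arrays and to 904 to 946 in Ly6C+ F4/80low arrays, with 6 of 10 called lower and Myf5 under background throughout. T and NK cell markers summed to 142 to 152 in Ly6C- F4/80high arrays and 176 to 187 in Ly6C+ F4/80low arrays, with 2 of 7 lower and Cd3d, Cd3g, Ncr1, Klrb1c and Gzma under background throughout. B cell markers summed to 201 to 226 in Ly6C- F4/80high arrays and 170 to 191 in Ly6C+ F4/80low arrays, with 1 of 4 higher and Cd79a and Ms4a1 under background throughout. All 5 mast cell and basophil markers were under background on every array, as were the eosinophil genes Ccr3, Prg2, Epx and Il5ra. With 1 of 5 lower in each list, mast cell and basophil markers summed to 71 to 82 in Ly6C- F4/80high arrays and 84 to 88 in Ly6C+ F4/80low arrays, and eosinophil markers to 147 to 177 in Ly6C- F4/80high arrays and 166 to 192 in Ly6C+ F4/80low arrays. Of these summed levels that of the eosinophil list overlapped between the subsets and the others did not. Each sum was also taken without the marker whose mean linear level differed most, a choice made after seeing the data. Without Adgre1 the macrophage list overlapped, at 14805 to 15263 in Ly6C- F4/80high arrays and 15024 to 15347 in Ly6C+ F4/80low arrays. The B cell list then turned round without Cd79b (69 to 76 in Ly6C- F4/80high arrays and 78 to 81 in Ly6C+ F4/80low arrays), the mast cell and basophil list overlapped without Kit (39 to 46 in Ly6C- F4/80high arrays and 45 to 48 in Ly6C+ F4/80low arrays), and the dendritic, T and NK, and stromal lists stayed lower in Ly6C- F4/80high arrays. Beside these marker calls, 19.5% of all genes were called higher and 14.3% lower. The part of these lists in the results that follow was not tested.

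The upstream sequences of the 3 ligand genes are shown because these genes, which encode partly overlapping signals, showed unequal differences between the subsets. They are the 250 bases before the start site in RefSeq, build GRCm38.p6, read 5′ to 3′ on the gene's strand, at chr2:129371140-129371389 (minus strand) for Il1b, chr2:129309973-129310222 (minus strand) for Il1a and chr9:50554450-50554699 (plus strand) for Il18. Capitals mark the motif matches described after them, and the motifs were chosen with these sequences in view: the NF-kB letters were shortened and those of C/EBP dropped after a first set of matches had been seen.
Il1b: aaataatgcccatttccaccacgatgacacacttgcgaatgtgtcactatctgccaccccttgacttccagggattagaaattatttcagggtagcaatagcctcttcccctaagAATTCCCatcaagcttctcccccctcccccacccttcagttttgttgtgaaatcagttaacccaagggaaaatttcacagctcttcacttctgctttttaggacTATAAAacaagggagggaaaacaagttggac
Il1a: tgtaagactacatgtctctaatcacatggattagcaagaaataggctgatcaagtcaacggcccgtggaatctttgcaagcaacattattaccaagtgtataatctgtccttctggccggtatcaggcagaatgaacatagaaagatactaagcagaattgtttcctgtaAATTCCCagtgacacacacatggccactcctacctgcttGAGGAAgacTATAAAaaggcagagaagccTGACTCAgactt
Il18: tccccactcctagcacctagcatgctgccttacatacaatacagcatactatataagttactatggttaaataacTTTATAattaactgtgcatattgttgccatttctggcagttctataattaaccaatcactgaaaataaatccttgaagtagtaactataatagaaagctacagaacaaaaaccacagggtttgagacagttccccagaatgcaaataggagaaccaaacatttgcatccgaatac
The letters searched, on both strands, were TATAAA for the TATA box, then TGANTCA for AP-1, further GAGGAA for PU.1 and lastly GGGANTT for the core of an NF-kB site. TATAAA lay 31 to 26 bases before the start site of Il1b and 32 to 27 bases before that of Il1a, on the gene's strand. In Il18 it lay on the opposite strand, 175 to 170 bases before the start site. Il1a also held the PU.1 letters at 41 to 36 bases and the AP-1 letters at 12 to 6 bases before its start site. The NF-kB core letters lay on the opposite strand in both Il1b and Il1a, 135 to 129 bases before the start site of Il1b and 80 to 74 bases before that of Il1a. The matches do not overlap each other, and the remaining letters had no match in these windows. Of 32851 upstream windows of the same length 12.4% held the TATA box letters, 6.75% those of AP-1, 23.3% those of PU.1 and 14.4% those of NF-kB. A match is a run of letters and not a measured binding site.

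Of the 7 genes measured, 5 were lower in Ly6C- F4/80high cells at a limma adjusted p under 0.05, 0 were higher, and Il1a and Il18bp were not called. Over all genes 33.8% were called, 14.3% as lower and 19.5% as higher, which is 2861 and 3887 genes, against 1737 lower and 4789 higher with arrays set to a common median. The genes called lower numbered 1866, 3290 and 1790 when mouse 1, 2 or 3 lost its Ly6C- F4/80high array. They numbered 2168, 2470 and 2136 when mouse 1, 2 or 3 lost its Ly6C+ F4/80low array. Without mouse 1, 2 or 3 altogether they numbered 1574, 2910 and 1321. The members called lower numbered 5 in each case. The median difference was -0.52 over the 7 genes and -0.06 over all genes. For 6 of the 7 genes the highest array of the lower subset lay under the lowest of the other, as it did for 48.1% of all genes. All 7 genes were above background on all 6 arrays. In RNA from sorted populations, fewer cells that express a gene and less of its RNA per cell cannot be told apart.

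**Figure D1:**
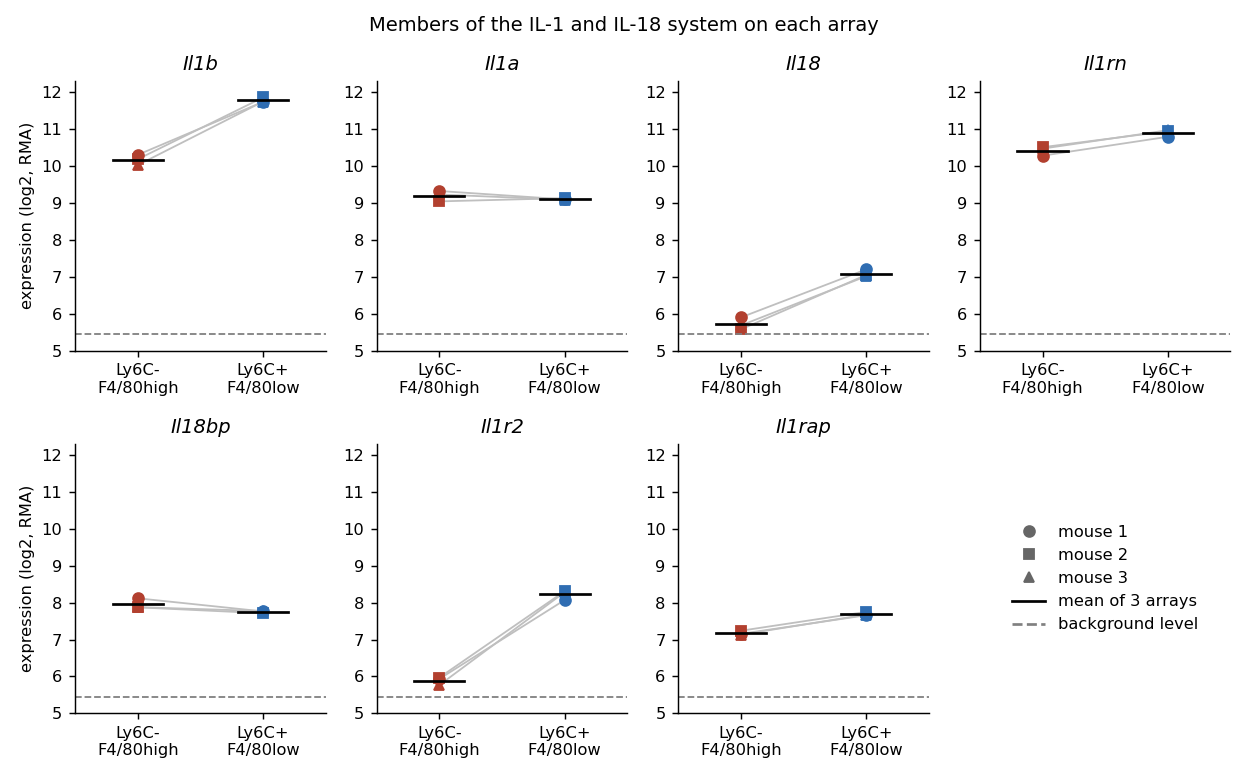
Expression of the 7 measured genes on each array (log2, y axis), Ly6C- F4/80high on the left and Ly6C+ F4/80low on the right of each panel, with symbols for mice, grey lines joining arrays of the same mouse, black bars at the mean of 3 arrays and a dashed line at the background of 5.44. Il1b, Il18 and Il1r2 sit lower in all 3 Ly6C- F4/80high arrays, Il1rn and Il1rap lie lower by less, and the Il1a arrays overlap.

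Among the ligands, Il1b and Il18 were lower in Ly6C- F4/80high cells and Il1a was not called. Il1b, which encodes the secreted IL-1β, stood at 10.30, 10.18 and 10.02 in Ly6C- F4/80high arrays of mice 1, 2 and 3, against 11.74, 11.85 and 11.74 in Ly6C+ F4/80low arrays. The lowest Ly6C+ F4/80low array exceeded the highest Ly6C- F4/80high array, so the subsets did not overlap. Il1b was 3.05-fold lower (95% interval 2.65 to 3.50), a log2 difference of -1.61 (SE 0.09, limma adjusted p = 1.33e-06). Of all genes, 0.667% differed by more in either direction. Il1a, whose product acts through the same receptor, measured 9.32, 9.04 and 9.23 in Ly6C- F4/80high arrays and 9.10, 9.13 and 9.09 in Ly6C+ F4/80low arrays. The Ly6C- F4/80high array of mouse 2 lay under, and those of mice 1 and 3 over, all 3 Ly6C+ F4/80low arrays. The difference of Il1a was 0.09 (SE 0.09, 95% interval -0.10 to 0.29, limma adjusted p = 0.428), and 74.4% of genes differed by more. RefSeq places the lncRNA gene Il1bos over part of Il1b and Gm14023 over part of Il1a, and whether the probes also read these was not tested. Il18, the gene of a cytokine that drives interferon gamma production in lymphocytes, stood at 5.90, 5.58 and 5.68 in Ly6C- F4/80high arrays, against 7.20, 7.05 and 7.02 in Ly6C+ F4/80low arrays. The Ly6C- F4/80high arrays were just above background, and the subsets did not overlap. Il18 was 2.58-fold lower (95% interval 2.21 to 3.01), a log2 difference of -1.37 (SE 0.10, limma adjusted p = 6.56e-06).

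Of the inhibitors, Il1rn was lower in Ly6C- F4/80high cells and Il18bp was not called. Il1rn, which encodes the receptor antagonist, measured 10.28, 10.51 and 10.47 in Ly6C- F4/80high arrays and 10.79, 10.94 and 10.97 in Ly6C+ F4/80low arrays. All 3 Ly6C- F4/80high arrays were lower than any Ly6C+ F4/80low array. Il1rn was 1.40-fold lower (95% interval 1.21 to 1.60), a log2 difference of -0.48 (SE 0.09, limma adjusted p = 0.00242), and 14.4% of genes differed by more. Il18bp, which encodes the soluble IL-18 binding protein, stood at 8.12, 7.87 and 7.88 in Ly6C- F4/80high arrays, against 7.76, 7.71 and 7.77 in Ly6C+ F4/80low arrays. The Ly6C- F4/80high arrays all lay above the Ly6C+ F4/80low arrays, with the array of mouse 1 the highest. The difference of 0.21 (SE 0.09) did not pass the test over all genes (limma adjusted p = 0.0931), although its 95% interval, not adjusted for the number of genes, ran from 0.01 to 0.40. Over the 21 alternatives the difference of Il18bp ran from 0.11 to 0.28 and its limma adjusted p from 0.0355 to 0.398. It passed with arrays set to a common median (0.28, limma adjusted p = 0.0355) and without the 50% of genes of lowest level (0.21, limma adjusted p = 0.0478). It was 0.11 after quantile normalization (limma adjusted p = 0.398), 0.13 after cyclic loess (limma adjusted p = 0.329), 0.13 when mouse 1 lost its Ly6C- F4/80high array (limma adjusted p = 0.299) and 0.13 without mouse 1 (limma adjusted p = 0.360).

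Both receptor genes measured were lower in Ly6C- F4/80high cells, with log2 differences of -2.33 for Il1r2 and -0.52 for Il1rap. Il1r2, the decoy receptor gene, measured 5.93, 5.97 and 5.77 in Ly6C- F4/80high arrays and 8.07, 8.31 and 8.28 in Ly6C+ F4/80low arrays. The Ly6C- F4/80high arrays lay close to the background of 5.44, and the Ly6C+ F4/80low arrays far above it. Il1r2 was 5.03-fold lower (95% interval 4.35 to 5.81), a log2 difference of -2.33 (SE 0.09, limma adjusted p = 2.09e-07). This was number 17 of 19938 genes counted from the most negative difference, and 1.02% of all genes were called at least 2-fold lower. Il1b, Il18 and Il1r2 were the members past that size. Il1rap, the gene of the accessory chain that the signalling receptor needs and that the decoy can also bind, stood at 7.15, 7.24 and 7.13 in Ly6C- F4/80high arrays, against 7.66, 7.75 and 7.68 in Ly6C+ F4/80low arrays. The subsets did not overlap, and each held its 3 arrays within a narrow range. Il1rap was 1.43-fold lower (95% interval 1.28 to 1.61), a log2 difference of -0.52 (SE 0.07, limma adjusted p = 0.000484).

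**Figure D2:**
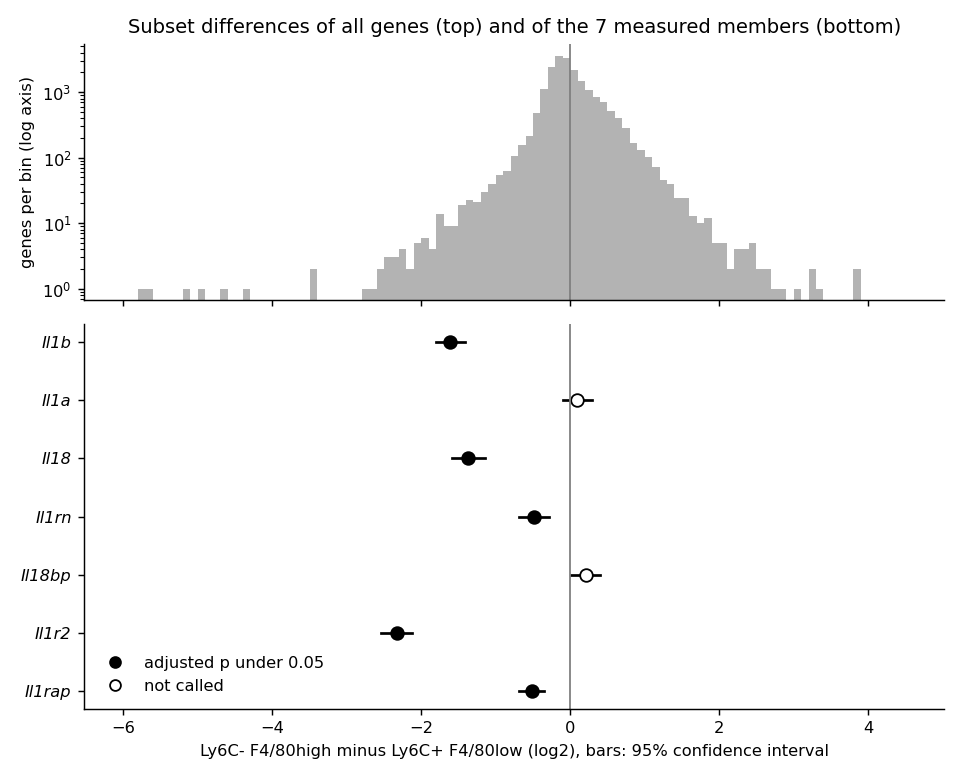
Difference between the subsets on the log2 scale (x axis, Ly6C- F4/80high minus Ly6C+ F4/80low) for all 19938 genes as a histogram with a logarithmic count axis (top) and for the 7 measured genes with 95% intervals (bottom), filled where the limma adjusted p was under 0.05. Il1r2 at -2.33, Il1b at -1.61 and Il18 at -1.37 lie in the sparse left part of the histogram, and Il1a at 0.09 and Il18bp at 0.21 lie near its middle.

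The direction was the same in all 3 mice for every member measured except Il1a. Within mice 1, 2 and 3 the difference of Il1b was -1.43, -1.67 and -1.72, and that of Il1r2 was -2.13, -2.34 and -2.52. Mouse 1 had the smallest difference for both genes. For Il18 the within-mouse differences were -1.30, -1.47 and -1.33, for Il1rn -0.51, -0.43 and -0.50, and for Il1rap -0.50, -0.51 and -0.54. Those of Il18bp were 0.36, 0.16 and 0.11, with mouse 1 the largest. Il1a differed by 0.23, -0.09 and 0.14, so that mouse 2 went the other way.

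The unequal shifts of an inhibitor and its ligand were measured within each array, as the log2 level of the inhibitor minus that of the ligand. The value itself has no meaning because the levels come from different probes, and only its change between subsets is read. For Il1rn minus Il1b it was -0.02, 0.33 and 0.45 in Ly6C- F4/80high arrays of mice 1, 2 and 3, against -0.95, -0.91 and -0.78 in Ly6C+ F4/80low arrays. The ratio of antagonist to IL-1β RNA was thus higher in all 3 Ly6C- F4/80high arrays, by 1.13 on the log2 scale or 2.18-fold. For Il18bp minus Il18 the values were 2.21, 2.29 and 2.19 in Ly6C- F4/80high arrays and 0.56, 0.66 and 0.75 in Ly6C+ F4/80low arrays. The ratio of binding protein to IL-18 RNA was higher by 1.57 on the log2 scale, or 2.98-fold. Il1b minus Il1a, a pair added after the values were seen, was 0.98, 1.14 and 0.80 in Ly6C- F4/80high arrays and 2.64, 2.72 and 2.66 in Ly6C+ F4/80low arrays, a change of -1.70. The ratio of IL-1β to IL-1α RNA was 3.25-fold lower in Ly6C- F4/80high cells, and lower in all 3 mice. Each of the 3 exact two-sided permutation tests over the 6 arrays gave p = 0.1 (Benjamini-Hochberg adjusted p = 0.1), the smallest that 3 against 3 arrays allow, so these tests could not reach 0.05.

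**Figure D3:**
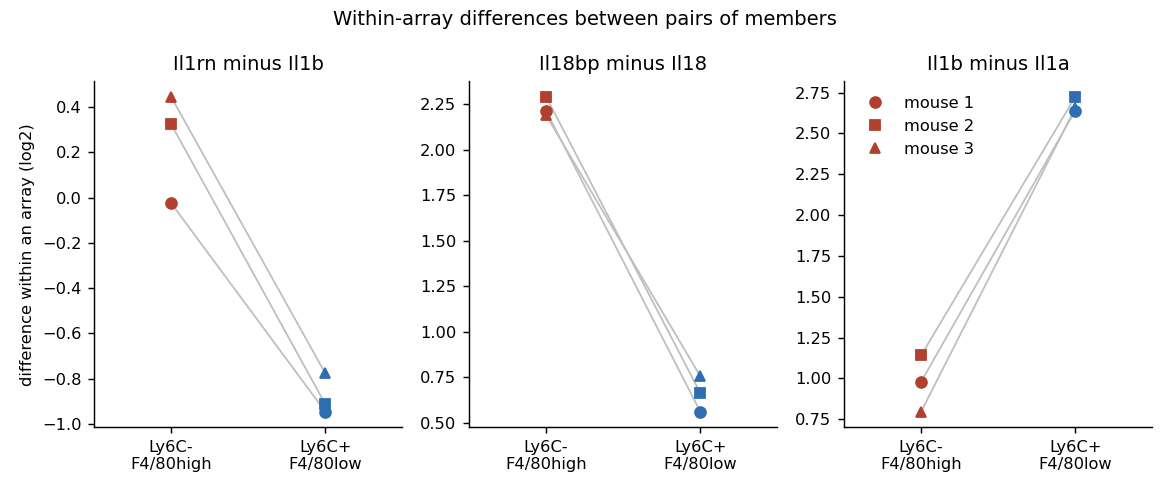
Within-array log2 difference between the members of 3 pairs (y axis, separate scales), Ly6C- F4/80high on the left and Ly6C+ F4/80low on the right, with symbols for mice and grey lines joining arrays of the same mouse. Il1rn minus Il1b and Il18bp minus Il18 are higher in every Ly6C- F4/80high array, and Il1b minus Il1a is lower in every one.

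Of the 8 other ligand and receptor genes of the family that were measured, 5 were under background on all 6 arrays. Of 6 further ligand genes 2 had a probe set of their own, Il33 and Il1f10, and both were under background on all 6 arrays, so their calls as lower carry no fold. These calls were lost without mouse 1 for Il33 (limma adjusted p = 0.0594) and without mouse 3 for Il1f10 (limma adjusted p = 0.0816). Of 7 further receptor genes 6 were measured, with 1 higher, 1 lower and 4 not called. Across all genes 19.5% were called higher and 14.3% lower. Il1rl2, which encodes the receptor of the IL-36 ligands, stood at 6.33, 6.09 and 5.97 in Ly6C- F4/80high arrays, against 5.04, 5.12 and 5.39 in Ly6C+ F4/80low arrays. All 3 Ly6C+ F4/80low arrays lay under background, which makes the gene at least 1.61-fold higher in Ly6C- F4/80high cells (limma adjusted p = 0.000189). Il18rap, the signalling accessory chain of the IL-18 receptor, stood at 5.14, 4.70 and 4.82 in Ly6C- F4/80high arrays, against 5.74, 6.22 and 5.69 in Ly6C+ F4/80low arrays. All 3 Ly6C- F4/80high arrays lay under background, which makes the gene at least 1.36-fold lower in them (limma adjusted p = 0.000732). Bounds set the dim arrays to the background. With the Ly6C+ F4/80low array of mouse 2 left out, the receptor genes called lower numbered 2. Il18r1, the ligand-binding chain, was under background on all arrays, and Sigirr, a receptor that dampens the family, differed by 0.08 (SE 0.08, limma adjusted p = 0.461). Il18r1 and Sigirr are named after their values were seen.

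Genes of inflammasomes and of ligand release were called in both directions, with Mefv the furthest from 0. The 18 measured genes had a median difference of -0.11, and 2 of them were called higher and 8 lower. For all genes the median was -0.06, with 19.5% called higher and 14.3% lower. Mefv, which encodes the inflammasome sensor pyrin, measured 7.72, 7.96 and 7.85 in Ly6C- F4/80high arrays and 9.36, 9.53 and 9.48 in Ly6C+ F4/80low arrays. It was 3.06-fold lower (log2 difference -1.61, SE 0.09, limma adjusted p = 1.19e-06). The sensor partner gene Nlrc4 differed by -0.87 (SE 0.10), with 2 of 3 Ly6C- F4/80high arrays above background, the thioredoxin-binding Txnip by -0.75 (SE 0.11) and the sensor gene Nlrp3 by -0.63 (SE 0.08). Nek7, a kinase that NLRP3 needs for assembly, was higher by 0.90 (SE 0.08, limma adjusted p = 1.61e-05), and the adaptor gene Pycard by 0.69 (SE 0.08, limma adjusted p = 0.000173). Casp1, the gene of the enzyme that cuts both precursors and named after its values were seen, stood at 7.76, 7.45 and 7.79 in Ly6C- F4/80high arrays, against 7.49, 7.47 and 7.33 in Ly6C+ F4/80low arrays. Its subsets overlapped, and the difference of 0.24 (SE 0.10) was not called (limma adjusted p = 0.0984). The genes called lower numbered 5 when mouse 3 lost its Ly6C- F4/80high array, 4 without mouse 1 and 5 without mouse 3.

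Signalling genes below the receptors were called in both directions. The 16 measured genes had a median difference of -0.01, and 3 of them were called higher and 6 lower. The shares over all genes were 19.5% higher and 14.3% lower, so the higher count is near its share. The median over all genes was -0.06. The kinase gene Irak2 differed by -0.64 (SE 0.12, limma adjusted p = 0.00267), Ikbkb, of the kinase that frees NF-kB, by -0.50 (SE 0.09), the adaptor gene Myd88 by -0.45 (SE 0.09) and the kinase gene Map3k8 by -0.45 (SE 0.09). Ikbkg, the regulatory subunit of the same kinase complex as Ikbkb, was higher by 0.35 (SE 0.09) and Peli2, a ubiquitin ligase gene of the Pellino family, by 0.39 (SE 0.10). Without mouse 3 the calls of Map3k8 (-0.40, limma adjusted p = 0.0510) and Ikbkg (0.30, limma adjusted p = 0.0732) were lost. That of Peli2 was lost without mouse 1 (0.32, limma adjusted p = 0.0656), without mouse 2 (0.40, limma adjusted p = 0.0626) and when mouse 3 lost its Ly6C- F4/80high array (0.35, limma adjusted p = 0.0604), and with all probe sets tested separately (limma adjusted p = 0.0527). Genes called higher numbered 1 without mouse 2, without mouse 3 or without that array.

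Genes listed as induced through this pathway and its feedback, many of which other signals induce too, included 8 that were lower in Ly6C- F4/80high cells. The 16 measured genes had a median difference of -0.27, and 2 of them were called higher and 8 lower. Among all genes 19.5% were called higher and 14.3% lower, with a median difference of -0.06. Il6, a cytokine gene and a classical target, stood at 4.63, 4.48 and 4.35 in Ly6C- F4/80high arrays, against 6.42, 6.22 and 6.11 in Ly6C+ F4/80low arrays. With all 3 Ly6C- F4/80high arrays under background, it was at least 1.76-fold lower in them (limma adjusted p = 2.03e-06). Nfkbiz, a nuclear cofactor of NF-kB, differed by -0.63 (SE 0.09), the prostaglandin synthase gene Ptgs2 by -0.54 (SE 0.09) and the adhesion gene Icam1 by -0.43 (SE 0.07). The neutrophil chemokine gene Cxcl1 was higher by 0.54 (SE 0.18, limma adjusted p = 0.0383), though its subsets overlapped. Its call was lost when the Ly6C- F4/80high array left out was that of mouse 1 (0.35, limma adjusted p = 0.123) or 2 (0.56, limma adjusted p = 0.0663), when the Ly6C+ F4/80low array left out was that of mouse 2 (0.45, limma adjusted p = 0.113) or 3 (0.51, limma adjusted p = 0.102), and without mouse 2 (0.46, limma adjusted p = 0.156). Quantile and cyclic loess normalization also ended it (limma adjusted p = 0.0634 and 0.0783), as did testing all probe sets separately (limma adjusted p = 0.116). Saa3, an acute-phase gene, was at least 1.10-fold higher in Ly6C- F4/80high cells, with 2 of their 3 arrays and 0 of 3 Ly6C+ F4/80low arrays above background (limma adjusted p = 0.0232). Its call was lost when the Ly6C- F4/80high array left out was that of mouse 1 (limma adjusted p = 0.0559) or 2 (0.0619), when the Ly6C+ F4/80low array left out was that of mouse 3 (0.0727), without mouse 1 (0.0991) or 2 (0.0850), and with all probe sets tested separately (0.0670). With these losses the genes called higher numbered 0 with the Ly6C- F4/80high array of mouse 1 or 2, the Ly6C+ F4/80low array of mouse 3, or mouse 2 left out, and 1 with the Ly6C+ F4/80low array of mouse 2 or mouse 1 left out.

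**Figure D4:**
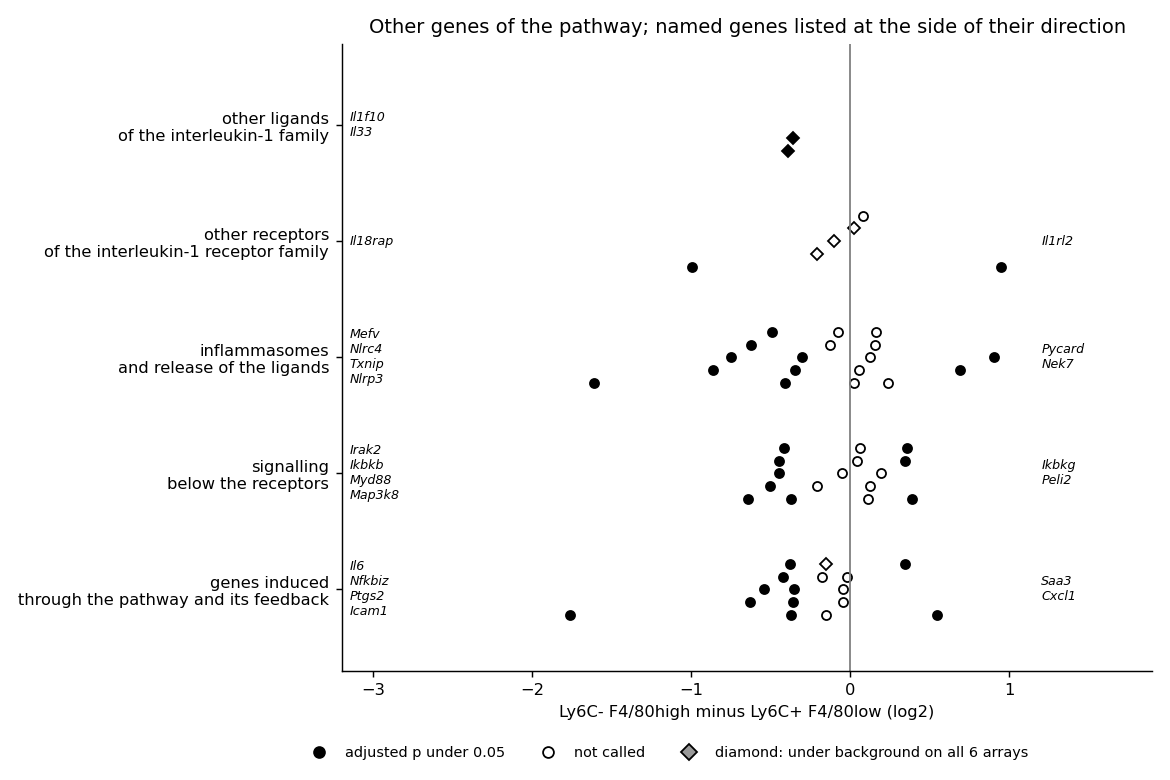
Difference between the subsets on the log2 scale (x axis, Ly6C- F4/80high minus Ly6C+ F4/80low) for the measured genes of 5 pathway lists (rows, points spread vertically for legibility), filled where the limma adjusted p was under 0.05 and drawn as diamonds where all 6 arrays were under background. Mefv at -1.61 and Il6, whose Ly6C- F4/80high arrays lie under background, are the points furthest left, and Il1rl2 and Nek7 are the points furthest right.

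The genes whose levels ran most like each member were taken by Pearson's r over the 6 arrays among 11910 other genes above background on at least 3 arrays, after 602 predicted, RIKEN and smell or pheromone receptor genes had been left out. The arrays form 2 subsets, so any gene with a clean subset difference gives a high r, and the values describe these arrays only. Il1b ran most like Clec7a, the glucan receptor gene (r = 0.9992), Slc38a1 (0.9991) and Taf4b (0.9990). Il1r2 ran most like Trem3 (0.9999), Nr4a1 (0.9995) and Arhgap26 (0.9991), and Il1rap most like Nfkbie (0.9999), Napsa (0.9994) and Gpr132 (0.9992). Il18 ran most like S100a6 (0.9996), Tmem176b (0.9994) and Txnrd1 (0.9993). Il1rn ran most like Sestd1 (0.9994), Hspa5 (0.9982), an endoplasmic reticulum chaperone gene, and Creld2 (0.998). The genes most like Il1a were Ercc4 (0.979), Ssna1 (0.977) and Mrps17 (0.964), and those most like Il18bp were Ldlrad4 (0.992), Ddx11 (0.988) and Dctn5 (0.987).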

How the data were processed

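Total RNA of 6 sorted samples was profiled on Affymetrix whole-transcript expression arrays, 150 ng per array, per the labels' protocols. The authors deposited RMA values, per the submitters' processing notes, on a log2 scale that was read from their range (1.20 to 13.5). RMA usually corrects background, quantile-normalizes probes and summarises them per probe set. No source used here gives the RMA version or settings. RMA compresses low signals, so differences near background are understated, and arrays give no read depth, so their number limits the precision. Of 35556 probe sets 21789 name 1 gene, and each symbol was read on the probe set of highest mean. The subsets were compared with limma 3.58.1 (R 4.3.3, lmFit, eBayes, two-sided, no filter), with Benjamini-Hochberg adjustment over 19938 genes and a call at an adjusted p under 0.05. The fit was tested on simulated data. The members and lists were chosen with earlier results of these data known. Besides the members, up to 6 called genes with the largest difference are named per pathway list, at most 4 in 1 direction where both occur, and the 3 most alike genes per member. Both subsets of a mouse carry its number in the labels, so the mouse pairs the arrays. Deviations of paired arrays from their subset means correlated at 0.033, -0.084 and 0.087. Alternatives covered the mouse as a block, normalization, filters, probe set choice, variance prior, array weights and left-out arrays. The pair of Il1r2 with Il1r1 could not be compared.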

Additional observations from a re-analysis of the deposited data

How the results depend on the processing

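The 5 members called lower were called lower under all 21 alternatives, among them the mouse as a replicate block (5 lower, 0 higher) and each array or mouse left out (5 throughout). Across these alternatives the difference of Il1b ran from -1.70 to -1.53, that of Il1r2 from -2.43 to -2.24, that of Il18 from -1.46 to -1.29, that of Il1rap from -0.60 to -0.44 and that of Il1rn from -0.54 to -0.40, while Il1a ran from 0.02 to 0.18 without a call and Il18bp from 0.11 to 0.28. The count of members called higher was 1, Il18bp, with a common median and 1 without the 50% of genes of lowest level. Over all genes a common median gave 4789 higher and 1737 lower calls, against 3887 and 2861. The within-array change kept its sign for all 3 pairs under all 14 alternatives, and within mice the exact sign-flip test with the replicate block gave p = 0.25, the smallest that 3 mice allow. For the other ligands the lower count was 0 without the 25% or the 50% of genes of lowest level and 0 among genes above background on at least 3 arrays, which leave these genes out, and 1 to 2 with an array or mouse left out. For the other receptors the counts higher and lower were both 0 without the 50% of genes of lowest level, which leaves out Il1rl2 and Il18rap, and the lower count was 1 to 2 with arrays left out. For inflammasome and release genes the higher count was 4 with a common median, and the lower count was 5 with all probe sets tested separately and 4 to 8 with arrays left out. For signalling genes the higher count was 1 to 3 with arrays left out. For induced genes the higher count was 1 after quantile normalization, 1 after cyclic loess, 1 without the 50% of genes of lowest level, 1 among genes above background, 0 with all probe sets tested separately and 0 to 2 with arrays left out. Where not named, the cause was not tested. The replicate block ended none of the calls of the genes named here by rule.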

Other observations

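Cd177, a surface gene used as a neutrophil marker and named after its values were seen, stood at 7.38, 7.23 and 6.93 in Ly6C- F4/80high arrays, against 9.40, 9.37 and 9.51 in Ly6C+ F4/80low arrays. Its difference was -2.25 (SE 0.11, limma adjusted p = 7.50e-07). Of the other 11 neutrophil markers Mmp8 was higher by 0.73 (SE 0.08, limma adjusted p = 7.93e-05), S100a9, Cxcr2 and Ly6g were called lower, and Csf3r, S100a8, Mmp9, Camp, Retnlg, Ngp and Ltf were not called. Csf3r, S100a8, Mmp8 and Mmp9 were above background on all 6 arrays, Camp on 4 and S100a9 on 3, those of Ly6C+ F4/80low cells, while Ly6g, Retnlg, Cxcr2, Ngp and Ltf were under it on all 6.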
